A study of Mus musculus with 6 samples.

Results

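The 9 genes described here encode the ligands, extracellular antagonists and receptors of activin signalling: Inhba, Inhbb, Fst, Fstl3, Acvr1, Acvr1b, Acvr2a, Acvr2b and Bambi. They were chosen by name, with earlier results of these data known, and each matched 1 row of the 25302 in the table of normalized read counts. RNA had been sequenced from biliary epithelial cells of mouse liver in 3 samples labelled Control and 3 labelled Sox9cKO. Both groups carried floxed alleles of Sox9, a transcription factor gene of the bile duct (Sox9fl/fl), and the Sox9cKO group also carried AlbCre on 1 allele (Sox9fl/fl:AlbCre+/-), so the presence of Cre itself differed between the groups. AlbCre is a Cre recombinase under the albumin promoter, which is active in hepatocytes and in the fetal liver cells from which bile duct cells arise. The labels gave no age or sex and did not say whether each sample came from its own animal, so p-values measure the spread between these samples only.

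Activins are dimers of inhibin beta subunits: Inhba encodes the beta A subunit of activin A, and Inhbb the beta B subunit of activin B. They bind a type II receptor (Acvr2a or Acvr2b), which recruits and phosphorylates a type I receptor. The main type I receptor of activins is Acvr1b, also called ALK4, which activates Smad2 and Smad3. Acvr1 (ALK2) is a type I receptor that mostly transmits bone morphogenetic protein signals through other Smads, and it can also be held by activin in a complex that does not signal. Follistatin (Fst) and follistatin-like 3 (Fstl3) wrap around activins outside the cell and keep them from their receptors, while Bambi is a membrane protein that resembles a type I receptor and lacks the kinase. In the liver, activin A is known to restrain the growth of epithelial cells and to promote matrix production.

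Between 11883496 and 16191990 reads per sample were assigned to genes. Sox9 itself had 6043 to 6293 normalized reads in the Control samples and 3165 to 3363 in the Sox9cKO samples, a mean level of 53.2% of Control (limma, adjusted p = 0.00501). All 12 biliary markers examined were present, with Krt19, a bile duct keratin named here for that role, at 11480 to 26648 normalized reads. Endothelial RNA was also present and uneven: 10 endothelial markers summed to 11637, 36668 and 1672 normalized reads in Control replicates 1 to 3 and to 29162, 37568 and 6009 in Sox9cKO replicates 1 to 3. Hepatocyte markers (15 genes) summed to 25351 to 39260 in Control and to 51613 to 83029 in Sox9cKO, without overlap. Without Apob, which was left out after the data were seen, the other 14 summed to 35948, 23110 and 27169 in Control and to 49712, 34430 and 50465 in Sox9cKO, and the groups overlapped. In such bulk samples, more cells of a type and more RNA per cell cannot be told apart.

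Of the 9 genes, 2 passed the test between Sox9cKO and Control, and both were higher in Sox9cKO: Fst and Inhba. None of the 9 was called lower by limma, although 3 of them (Fstl3, Acvr2a and Bambi) were lower at an unadjusted p under 0.05. DESeq2 called 2 of these (Fstl3 and Bambi), but it called more genes in all, 1214 (493 lower) against 510 (161 lower) by limma. Over all 17153 genes tested, 2.97% were called, 2.03% higher and 0.939% lower (limma on log2(normalized reads + 1), Benjamini-Hochberg adjusted p under 0.05). The 3 values of one group lay wholly to one side of the other group's in 6 of the 9 genes, 3 higher (Inhba, Fst, Acvr1) and 3 lower (Fstl3, Acvr2a, Bambi), which held for 24.2% of all genes tested, 13.4% higher and 10.8% lower. The sample titles only number the replicates, and samples of equal number were taken as pairs, which is an assumption. With the replicate number as a block 5 of the 9 were called, against 8.05% of all genes (5.06% higher, 2.99% lower): Inhbb was then also called higher, and Fstl3 and Bambi lower. In 7 of the 9 genes all 3 pairs differed in the same direction, 4 higher and 3 lower, as did 48.5% of all genes tested, 26.7% higher and 21.8% lower. The median log2 fold change of the 9 genes was -0.046, beside 0.036 over all genes tested. Because the 9 genes were chosen with earlier results of these data known, these shares are a description and not a test of the list.

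**Figure D1:**
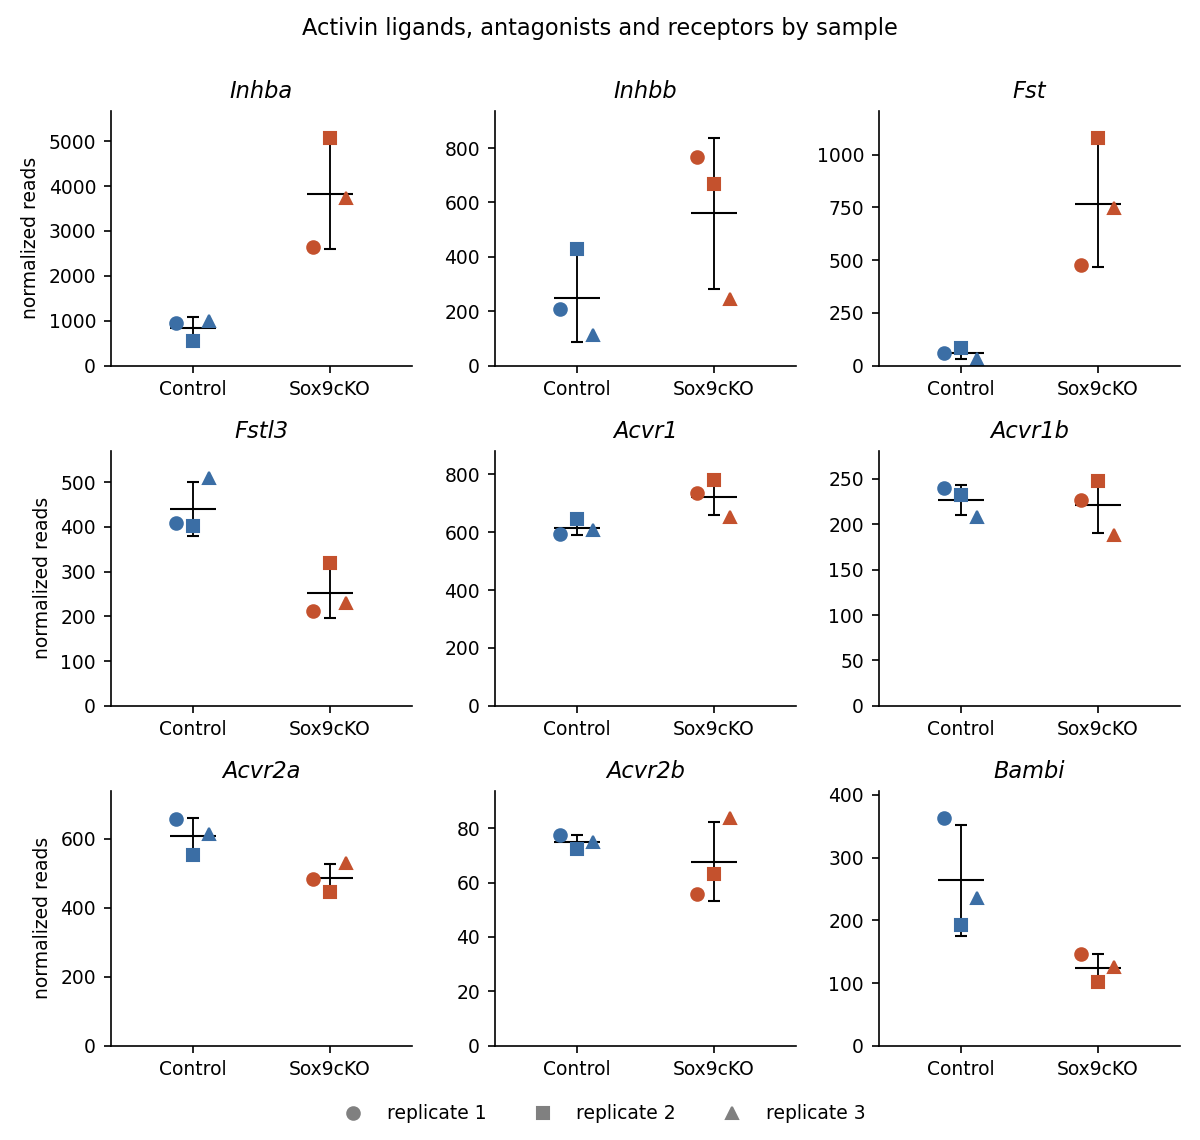
Normalized reads (vertical axis, linear, from 0) of each of the 9 genes in the Control (blue) and Sox9cKO (red) samples, with circles, squares and triangles for replicates 1, 2 and 3. Horizontal bars are group means and whiskers 1 SD (n = 3). The Inhba and Fst values of Sox9cKO all lie above those of Control, while those of Acvr1b and Acvr2b overlap.

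To show the letters before ligand and antagonist genes, the 250 bases before the RefSeq start of Inhba, of Inhbb and of Fstl3 are shown (RefSeq, GRCm38.p6, whereas the submitters' processing notes name GRCm39), each 5′ to 3′ on the strand of its gene. Capitals mark matches to the motifs described after them. The Inhba window lies at chr13:16011601-16011850 on the plus strand, the Inhbb window at chr1:119422249-119422498 on the minus strand, and the Fstl3 window at chr10:79777024-79777273 on the plus strand.
Inhba: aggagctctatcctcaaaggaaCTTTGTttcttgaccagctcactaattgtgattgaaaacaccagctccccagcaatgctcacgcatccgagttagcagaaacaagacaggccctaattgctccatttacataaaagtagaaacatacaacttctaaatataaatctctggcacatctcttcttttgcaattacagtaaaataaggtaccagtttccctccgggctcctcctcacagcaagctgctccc
Inhbb: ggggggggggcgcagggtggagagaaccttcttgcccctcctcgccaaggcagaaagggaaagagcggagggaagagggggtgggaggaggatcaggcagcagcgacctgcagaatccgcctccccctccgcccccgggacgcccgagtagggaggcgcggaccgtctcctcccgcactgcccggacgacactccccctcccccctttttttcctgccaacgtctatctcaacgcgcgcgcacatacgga
Fstl3: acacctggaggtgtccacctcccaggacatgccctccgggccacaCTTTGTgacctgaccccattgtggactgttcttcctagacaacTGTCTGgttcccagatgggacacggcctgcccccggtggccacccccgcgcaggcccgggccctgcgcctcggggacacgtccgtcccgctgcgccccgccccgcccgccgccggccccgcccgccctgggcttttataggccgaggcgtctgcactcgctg
These 3 windows differed in base composition. The Inhba window had 43.2% G and C, the Inhbb window 68% and the Fstl3 window 71.2%, beside a median of 52.4% over the 32851 windows of this length. In the other 4 genes with a window (Acvr1, Acvr1b, Acvr2a and Acvr2b) the share lay between 72.8% and 85.6%, so the Inhba window was the only one of the 7 below the median. Fst and Bambi are named only.

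A total of 6 motifs were searched on both strands of these windows. They were the Sox cores AACAAT and ACAAAG, the sequence CAGACA, a Smad box, the palindromic Smad element GTCTAGAC, the AP-1 site TGAGTCA and the cAMP response element TGACGTCA. The Inhba window held ACAAAG once, on the opposite strand (printed CTTTGT, bases 23 to 28 from the left end). The Fstl3 window held ACAAAG once (bases 46 to 51) and CAGACA once (printed TGTCTG, bases 89 to 94), both on the opposite strand. The Inhbb window held none of the 6, and of the 4 receptor windows 1, that of Acvr2b, held a match (ACAAAG). No match overlapped another. ACAAAG occurs in 16.5% of all windows of this length, CAGACA in 17.1%, AACAAT in 9.42%, TGAGTCA in 4.46%, TGACGTCA in 1.55% and GTCTAGAC in 0.167%. A match of this kind describes the letters and is not a measured binding site.

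Among the ligands, Inhba rose in Sox9cKO. The Control samples 1 to 3 had 951, 555 and 1007 normalized reads, and the Sox9cKO samples 1 to 3 had 2646, 5070.2 and 3740.4. Every Sox9cKO sample was above every Control sample. In reads the Control values lay closer together, while relative to the mean the SD was similar, 29.4% in Control and 31.8% in Sox9cKO. The means were 838 ± 246 and 3819 ± 1214 (SD, n = 3), and the log2 fold change was 2.19 with a 95% interval of 1.48 to 2.89 (limma, adjusted p = 0.0122). Taken by replicate number, the log2 difference was 1.48, 3.19 and 1.89, so the second pair, which held the lowest Control and the highest Sox9cKO value, differed most. Only 1.56% of the genes tested had a larger change in either direction. The call was lost when Sox9cKO replicate 3 was left out (limma, log2 difference 2.18, adjusted p = 0.0511).

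Inhbb, the gene of the beta B subunit, had a wide spread within both groups. Its normalized reads were 208, 429.7 and 112 in Control and 767, 668 and 246 in Sox9cKO. The groups overlapped, since Control replicate 2 was above Sox9cKO replicate 3. Within each replicate number the Sox9cKO sample was the higher one, by 1.88, 0.64 and 1.13 on the log2 scale. The log2 fold change of 1.22 did not pass the test (limma, adjusted p = 0.333, 95% interval -0.14 to 2.57), whereas it did with the replicate block (limma, adjusted p = 0.0281). Inhbb was highest in 3 samples (Sox9cKO replicates 1 and 2 and Control replicate 2), and these were also the 3 samples with the highest endothelial marker sums.

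With the mean log2 level of the endothelial markers as a covariate, an alternative chosen after the data were seen, the log2 difference of Inhbb was 0.70 (limma, adjusted p = 0.137). The same covariate left Inhba at 2.31 (adjusted p = 0.00684) and Fst at 3.43 (adjusted p = 0.00325). All 10 endothelial markers had a positive log2 fold change, with a median of 1.07. Limma called none of them without the replicate block and 1 with it, Vwf (adjusted p = 0.0420). The part of endothelial cells in the Inhbb values was not tested beyond this fit.

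Per kilobase of exon, the sum of Inhba and Inhbb was 198, 188 and 184 normalized reads in Control, a spread of 7.06 (SD) around a mean of 189.8. The Control sample with the least Inhba was the one with the most Inhbb, so that Inhba made up 75.3%, 46.2% and 85.7% of the sum in Control replicates 1 to 3. In Sox9cKO the sum was 594, 950.5 and 643, and Inhba made up 69.7%, 83.5% and 91.0% of it. The ratio of Inhba to Inhbb overlapped between the groups (exact two-sided permutation p = 0.5, n = 3 per group).

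Of the other inhibin subunits and related ligands that were listed, none passed the test. The list named 9 genes, of which 5 were in the table and 3 could be tested (Inha, Gdf11 and Gdf15). Gdf15, a stress-induced hormone of the same superfamily, was the most abundant of them, with 225 ± 81.7 normalized reads in Control and 306 ± 42.0 in Sox9cKO (limma, adjusted p = 0.384). Inhbc and Inhbe, the beta subunit genes known from hepatocytes and named here after their values were seen, were too low to be tested. Inhbe had 3.71 to 6.91 normalized reads in Control and 10.9 to 19.8 in Sox9cKO, and Inhbc had 0.928 to 5.04 and 3.40 to 10.9. Inha, whose product turns beta subunits into inhibins, had 8.35 to 17.7 in Control and 4.97 to 11.3 in Sox9cKO (limma, adjusted p = 0.518).

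Among the antagonists, Fst had the largest change of the 9 genes. Its normalized reads were 62.2, 86.3 and 32.3 in the Control samples and 479, 1079 and 746 in the Sox9cKO samples, from 28 to 1142 reads before scaling. The groups did not overlap. The means were 60.3 ± 27.1 and 768 ± 301 (SD, n = 3), a ratio of 12.7. The log2 fold change was 3.68 with a 95% interval of 2.70 to 4.66 (limma, adjusted p = 0.00611), and 0.297% of the genes tested changed more. The pairs differed by 2.92, 3.63 and 4.49 on the log2 scale. Gm47040, an antisense gene whose exons overlap those of Fst, had at most 5.66 normalized reads in any sample.

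Fstl3 was lower in Sox9cKO, where Fst was higher. It had 408, 402 and 509 normalized reads in Control and 212, 318 and 229 in Sox9cKO. The groups did not overlap, and Sox9cKO replicate 2 came closest to Control. Means were 439.6 ± 60.4 and 253 ± 57.3 (SD, n = 3). The log2 fold change of -0.81 (95% interval -1.27 to -0.35) missed the threshold (limma, adjusted p = 0.0854) and passed it with the replicate block (limma, adjusted p = 0.0441). Exons of Prss57 overlap those of Fstl3 on the other strand, and Prss57 had 3.78 to 13.4 normalized reads.

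Fstl3 was the more abundant antagonist transcript in Control and Fst in Sox9cKO. Per kilobase of exon, Fst made up 7.52%, 10.3% and 3.26% of Fst plus Fstl3 in Control and 54.6%, 64.4% and 63.5% in Sox9cKO. The ratio of Fst to Fstl3 was 0.0813, 0.114 and 0.0338 in Control and 1.20, 1.81 and 1.74 in Sox9cKO. It differed by 4.49 on the log2 scale and the groups did not overlap. With 3 samples against 3, the exact two-sided permutation test cannot give less than 0.1, which is the value it gave (0.125 after adjustment over the 10 ratios compared).

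**Figure D2:**
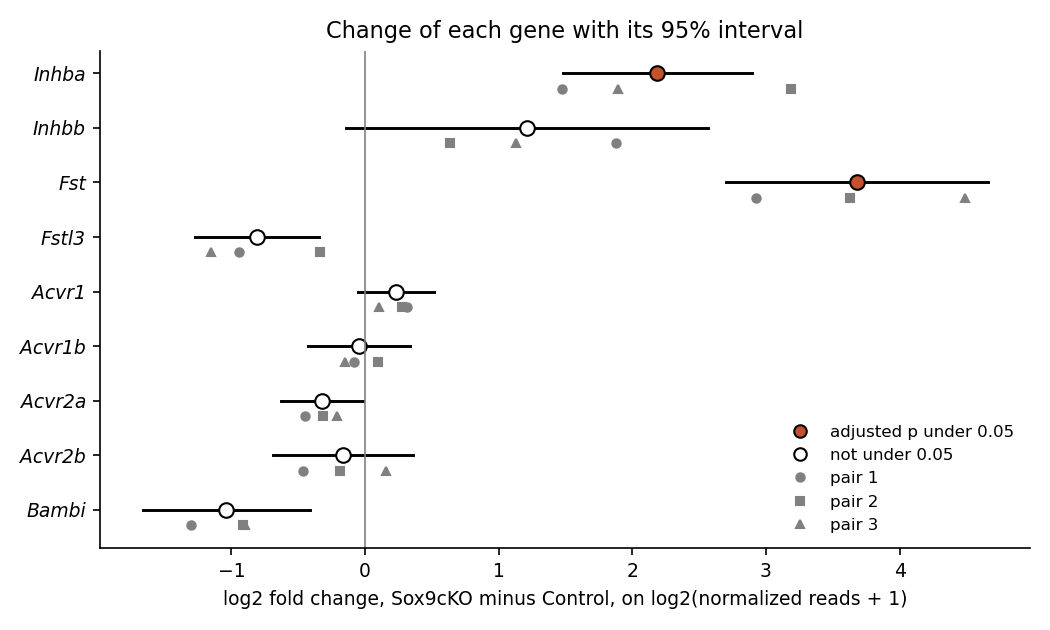
Log2 fold change of each gene (horizontal axis, Sox9cKO minus Control, on log2(normalized reads + 1)) with its 95% interval from limma without the replicate block. Filled red circles mark an adjusted p under 0.05, open circles the others, and small grey symbols the difference within each replicate number. Inhba and Fst stand to the right of 0, and the 3 pairs of Fstl3, of Acvr2a and of Bambi all lie to the left.

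Ligand and antagonist transcripts were then set against each other within each sample, again per kilobase of exon. Inhba exceeded Fst by 11.0, 4.62 and 22.4 times in Control and by 3.97, 3.37 and 3.60 times in Sox9cKO. The ratio was thus lower in all 3 Sox9cKO samples than in any Control sample, with a log2 difference of -1.49 (exact two-sided permutation p = 0.1, n = 3 per group, the smallest possible). The ratios of the Sox9cKO samples also lay closer together, with an SD of 0.118 on the log2 scale against 1.13 in Control.

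Counted against both antagonists, the ligands stood higher in Sox9cKO. Inhba plus Inhbb was 1.10, 1.03 and 0.854 times Fst plus Fstl3 in Control, and 3.11, 2.60 and 2.51 times in Sox9cKO. Fst plus Fstl3 together amounted to 193 ± 19.4 normalized reads per kilobase in Control and to 271 ± 88.2 in Sox9cKO (SD, n = 3), and these sums overlapped, since Sox9cKO replicate 1 had 191. The ligand sum was 189.8 ± 7.06 in Control and 729 ± 193 in Sox9cKO, without overlap. The ratio of the sums differed by 1.47 on the log2 scale, with an exact permutation p of 0.1 (n = 3 per group). Transcript ratios do not give protein ratios, and the exon lengths are those of all annotated exons of a gene.

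**Figure D3:**
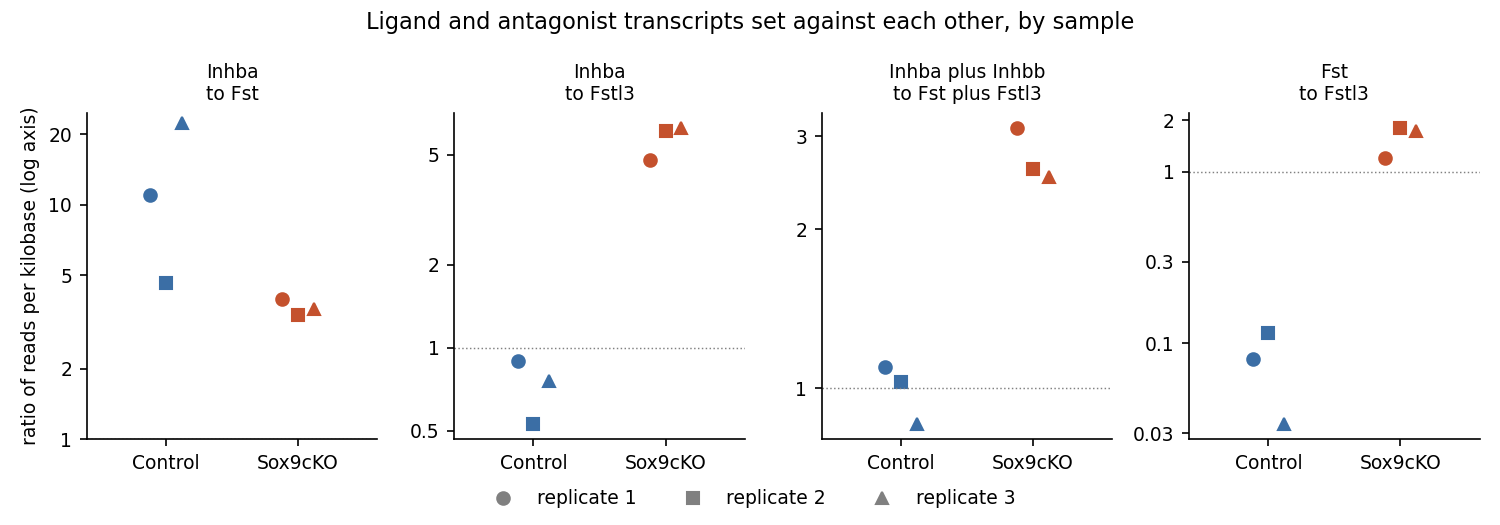
Ratios of normalized reads per kilobase of exon in each sample (vertical log axes that differ between panels), for Control (blue) and Sox9cKO (red), with symbols for the replicate number and a dotted line at a ratio of 1. Inhba stands from 4.62 to 22.4 times above Fst in Control and from 3.37 to 3.97 times in Sox9cKO, whereas Fst to Fstl3 crosses 1 between the groups.

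Neither type II receptor passed the test. Acvr2a had 658, 553 and 613 normalized reads in Control and 483, 445 and 529.8 in Sox9cKO. The groups did not overlap, though Control replicate 2 and Sox9cKO replicate 3 lay close together. The log2 fold change of -0.32 (95% interval -0.63 to -0.01) did not pass the test (limma, adjusted p = 0.258, and 0.135 with the replicate block). Exons of Orc4, an origin recognition gene on the other strand, overlap those of Acvr2a and had 604 to 811 normalized reads, and although the library kit marks the strand, the sources used here do not say whether counting used it, so reads of the overlap cannot be assigned with certainty. Acvr2b, the least abundant receptor, had 77.3, 72.4 and 74.9 normalized reads in Control and 55.7, 63.3 and 83.8 in Sox9cKO, and the Sox9cKO values enclosed those of Control. Its log2 fold change was -0.17 (limma, 95% interval -0.69 to 0.36, adjusted p = 0.756). Its lowest sample, Sox9cKO replicate 1, had 56 reads, with an exact Poisson interval of 42.3 to 72.7 that is wider than the range of the Control values. Per kilobase, Acvr2a made up 84.1% to 85.5% of the 2 type II receptors in Control and 81.4% to 85.7% in Sox9cKO.

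The type I receptor of activins, Acvr1b, overlapped between the groups. It had 240.4, 232 and 209 normalized reads in Control and 227, 248 and 188 in Sox9cKO, with the highest and the lowest value both in Sox9cKO. The log2 fold change was -0.046, and its 95% interval of -0.43 to 0.33 corresponds to a Sox9cKO level of 0.743 to 1.26 times that of Control (limma, adjusted p = 0.922). Without Sox9cKO replicate 3 the sign turned, to 0.065. Acvr1 had 593, 644 and 608 normalized reads in Control and 736, 779.7 and 653 in Sox9cKO. All 3 Sox9cKO values of Acvr1 were above those of Control, and Sox9cKO replicate 3 exceeded Control replicate 2 only slightly. Its log2 fold change of 0.23 (95% interval -0.05 to 0.51) did not pass the test (limma, adjusted p = 0.379).

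Bambi, the kinase-free decoy, was lower in every Sox9cKO sample. It had 363, 193 and 235 normalized reads in Control and 146, 102 and 126 in Sox9cKO. Control replicate 1 stood well above the other two Control samples, and the groups did not overlap. Means were 264 ± 88.6 and 125 ± 22.1 (SD, n = 3), so that Sox9cKO stood at 47.3% of Control. Its log2 fold change of -1.04 (95% interval -1.66 to -0.41) missed the threshold (limma, adjusted p = 0.0991) and passed it with the replicate block (limma, adjusted p = 0.0140). Per kilobase, Acvr1b was 0.760, 1.38 and 1.02 times Bambi in Control and 1.78, 2.79 and 1.72 times in Sox9cKO.

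The order of levels per kilobase of exon differed between the groups. In Control, Fstl3 stood first with 179.8 ± 24.7 normalized reads per kilobase (SD, n = 3), followed by Inhba (131 ± 38.5), Acvr1 (127 ± 5.47), Acvr2a (107 ± 9.26), Inhbb (58.7 ± 38.3), Bambi (52.0 ± 17.5), Acvr1b (51.4 ± 3.74), Acvr2b (19.1 ± 0.629) and Fst (13.1 ± 5.90). Neighbours in that order whose samples did not overlap were Fstl3 and Inhba, Acvr1 and Acvr2a, and Acvr1b and Acvr2b, and the other neighbours overlapped. In Sox9cKO, Inhba stood first with 598 ± 189.9, followed by Fst (167 ± 65.6), Acvr1 (149.7 ± 13.3), Inhbb (132 ± 65.1), Fstl3 (103 ± 23.4), Acvr2a (85.4 ± 7.47), Acvr1b (49.97 ± 6.86), Bambi (24.6 ± 4.36) and Acvr2b (17.2 ± 3.69). Here Inhba lay clear of Fst by 3.57 times in the mean, Acvr2a of Acvr1b and Acvr1b of Bambi, while all other neighbours overlapped. Fst moved from the last place to the second. Among all tested genes, the level per kilobase of Inhba exceeded that of 75.8% in Control and of 95.8% in Sox9cKO, and that of Fst exceeded 20.7% and 79.7%.

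**Figure D4:**
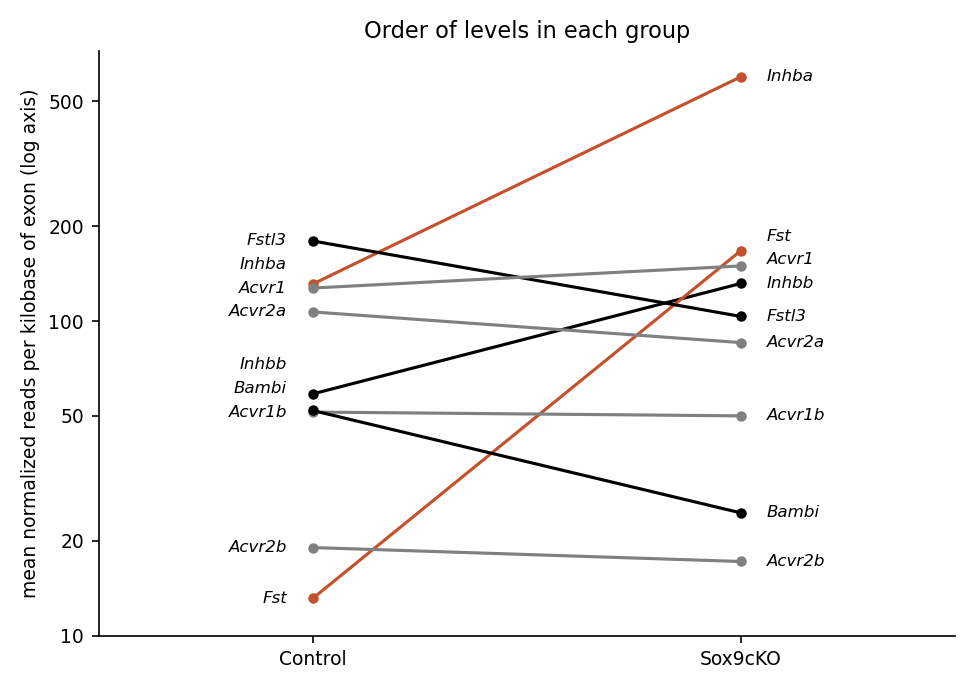
Mean normalized reads per kilobase of exon (vertical log axis) of each gene in Control (left) and Sox9cKO (right), joined by a line. Red lines mark Inhba and Fst, which were called, black lines Inhbb, Fstl3 and Bambi, which limma called with the replicate block and not without it, and grey lines the rest. Fst goes from 13.1 to 167, and the grey lines (Acvr1, Acvr1b, Acvr2a and Acvr2b) belong to receptors that were not called.

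The rest of the pathway was read from a list of 58 further gene names, of which 46 were found in the table by symbol and 39 could be tested. Of these 39, 3 were called higher in Sox9cKO (Pcsk6, Tgfbr2 and Igsf1), 1 was called lower (Rgma) and 35 were not called. Over all genes tested, limma called 2.97%, 2.03% higher and 0.939% lower. The median log2 fold change of the list was 0.14, beside 0.036 over all genes. With the replicate block, 8 were called, 6 higher and 2 lower, against 8.05% of all genes (5.06% higher, 2.99% lower). Without Control replicate 1, and likewise without Control replicate 3, Pcsk6 was the only gene of the list that was called. In these fits the calls over all genes also fell, from 510 to 199 and 212.

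Ligand processing held 1 of these calls. Pcsk6 encodes PACE4, a proprotein convertase that cleaves precursors of this ligand family, and it had 26.1, 26.9 and 28.8 normalized reads in Control and 97.5, 114 and 135 in Sox9cKO. All Control samples were below all Sox9cKO samples (log2 fold change 2.03, limma, adjusted p = 0.00553). Furin, the most abundant convertase of the list, had 1906 ± 106 and 2331 ± 132 normalized reads (SD, n = 3) and was not called (limma, adjusted p = 0.208). Pcsk5, another convertase, had 229 ± 81.5 in Control and 89.7 ± 23.7 in Sox9cKO and was not called by limma without the replicate block (adjusted p = 0.0963) and was called with it (0.0127), by DESeq2, and by limma without Control replicate 2. Pcsk5, Pmepa1 and Fkbp1a are named outside the rule for named genes, because limma called them with the block.

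Receptors and coreceptors held the other 3. Igsf1, a membrane protein that has been described as a coreceptor of inhibin, rose from 109 ± 9.90 to 260.4 ± 41.0 normalized reads (SD, n = 3; log2 fold change 1.24, limma, adjusted p = 0.0142). Rgma, a membrane-anchored coreceptor of bone morphogenetic proteins, fell from 179, 109 and 138 in Control to 17.9, 4.73 and 14.7 in Sox9cKO. Every Sox9cKO sample of Rgma was below every Control sample (log2 fold change -3.55, limma, adjusted p = 0.0116). Tgfbr2, the type II receptor of TGF-beta, stood at 204 normalized reads per kilobase in Control and 452 in Sox9cKO (log2 fold change 1.14, limma, adjusted p = 0.0105). Bmpr2, the uncalled receptor of the list with the most reads, though not per kilobase, had 3327 ± 1043 and 3590.1 ± 512 (limma, adjusted p = 0.793). Eng, a coreceptor that endothelial cells express strongly and itself 1 of the 10 endothelial markers, had 221 to 5028 normalized reads across the samples and was not called (limma, adjusted p = 0.676).

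Inside the cell, limma without the block called none of the 7 mediators and none of the 10 inhibitors tested. DESeq2, also without a block, called 1 of each (Smad3 and Pmepa1), and 1214 genes in all against 510 by limma. Smad3, which activin receptors phosphorylate, was the most abundant mediator, with 4777, 6624 and 7026 normalized reads in Control and 8709, 9987 and 11885 in Sox9cKO. Its groups did not overlap (log2 fold change 0.74, limma, adjusted p = 0.0954, and 0.00939 with the block). Smad2 and Smad4, named after their values were seen, had log2 fold changes of -0.03 and -0.01. Pmepa1, which binds Smad2 and Smad3 and is induced by TGF-beta, had 1062 ± 133 and 1799 ± 425 (limma, adjusted p = 0.106, and 0.0205 with the block), and Fkbp1a, which binds type I receptors, had 733 ± 175 and 1046 ± 123 (limma, adjusted p = 0.206, and 0.0485 with the block). Skil, a repressor of Smad-dependent transcription and the inhibitor of the list with the most reads, though not per kilobase, had 6171 ± 320 in Control and 5708 ± 442 in Sox9cKO (limma, adjusted p = 0.648). Of the 4 tested extracellular antagonists other than Fst and Fstl3, none was called, and the most abundant was Fstl1 with 238 ± 44.7 and 308 ± 102 (limma, adjusted p = 0.582).

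The markers of other cells were read beside these results. Of the 15 hepatocyte genes, limma called 5 higher (Apob, Fgb, Fgg, Serpina1b and Tat) and none lower, with a median log2 fold change of 0.75. The shares over all genes tested were 2.03% higher and 0.939% lower. Groups did not overlap for 7 of the 15 in the higher direction and 1 in the lower, against 13.4% and 10.8% of all genes tested. The sum of the 15 was higher in all 3 Sox9cKO samples, as were Inhba and Fst, but without Apob the sum of Sox9cKO replicate 2 was below that of Control replicate 1. Within the Sox9cKO samples, replicate 2 had the highest Inhba and Fst and the lowest hepatocyte sum. The order of the 3 samples depended on the marker. Alb was lowest in replicate 2 (21399, against 32147 in replicate 1 and 35363 in replicate 3). Fgb was lowest in replicate 1 (603, against 645 in replicate 2 and 749 in replicate 3). Alb, the most abundant hepatocyte marker, had 17384 to 27683 normalized reads in Control and 21399 to 35363 in Sox9cKO and was not called (limma, adjusted p = 0.380). Of the 15 genes, 12 had a positive and 3 a negative log2 fold change. Asgr1, a receptor on the hepatocyte surface, and Hnf4a are named after their values were seen. Asgr1, among those 3, had 26.5 to 50.1 in Control and 7.92 to 17.96 in Sox9cKO (limma, adjusted p = 0.164). Hnf4a, among the 12, had 3802 to 6320 in Control and 6994 to 10056 in Sox9cKO (limma, adjusted p = 0.131). The part of hepatocyte RNA in the Inhba and Fst values was not tested.

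Markers of fibroblasts, stellate cells, mesothelium and blood cells were examined likewise, and Upk3b, Lyz2 and Ptprc are named after their values were seen. By limma, none of the 9 tested stellate cell and fibroblast markers was called, and their sum was 2297 to 3060 in Control and 2436 to 5005 in Sox9cKO, with Reln, also made by other cells, the most abundant. Of the 4 tested mesothelial genes, Msln, the gene of mesothelin, was called higher (273 to 368 and 827 to 1740.1 normalized reads, limma, adjusted p = 0.0159), whereas Upk3b had 65.0 to 80.7 in Control and 35.9 to 44.8 in Sox9cKO and was not called (adjusted p = 0.110). Of the 7 tested leukocyte genes, 6 had a negative log2 fold change (median of the list -0.69), and the exception, Csf1r, was called higher by limma (adjusted p = 0.0142). With the replicate block Lyz2 was also called, lower (limma, adjusted p = 0.0417). Ptprc, the common leukocyte antigen, had 19.6 to 37.0 in Control and 1.13 to 16.9 in Sox9cKO. Haemoglobin and other erythroid genes summed to at most 57.5 normalized reads, and limma called no cycling cell marker with or without the block. No marker of any list that was in the table was at 0 in all samples, and the part of these cells in the results was not tested. Mitochondrially encoded transcripts took 7.58% to 10.2% of the reads.

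**Figure D5:**
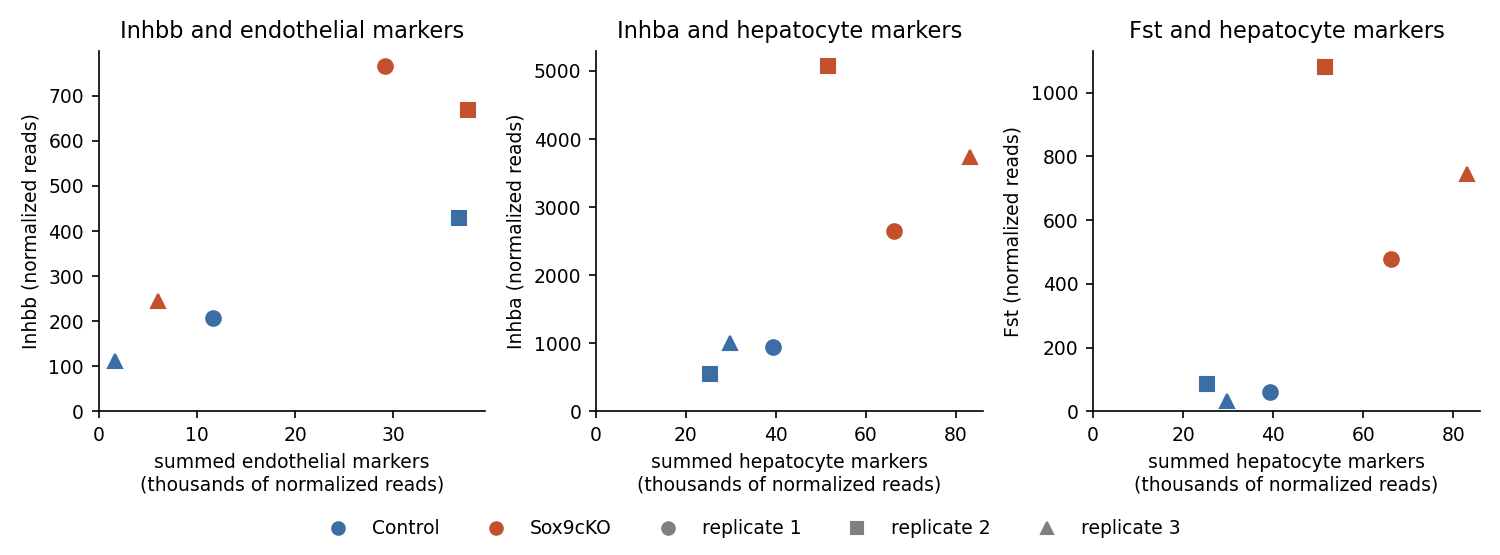
Normalized reads of Inhbb (left), Inhba (middle) and Fst (right) on the vertical axes against the summed normalized reads, divided by 1000, of 10 endothelial markers (left) and of 15 hepatocyte markers (middle and right), with 1 point per sample, blue for Control and red for Sox9cKO. The highest Inhbb values are in samples with high endothelial sums. The hepatocyte sums of Sox9cKO all lie above those of Control, as do the Inhba and Fst values. The highest Inhba and Fst values are in the Sox9cKO sample with the lowest hepatocyte sum of its group.

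The genes whose pattern over the 6 samples was most like that of Inhba were sought among 11037 others whose mean reached 50 normalized reads. On log2(normalized reads + 1), the highest Pearson correlations were those of Nphp4 (0.9988), a gene of the primary cilium, Zfp512b (0.998), Unc5b (0.997), a netrin receptor gene, Qrsl1 (0.994) and Mpeg1 (0.994), a gene known from macrophages. Unc5b had 1689.7 ± 164 normalized reads in Control and 2668 ± 298 in Sox9cKO, and Mpeg1 had 181 ± 42.0 and 473 ± 67.0, and these were the 2 of the 5 that were called (limma, adjusted p = 0.0474 and 0.0187). For Fst the highest were Enkur (0.997), Cyp4v3 (0.997) and Serpind1 (0.995), the gene of heparin cofactor II, a plasma protein of the liver. Cyp4v3 and Serpind1 were called (limma, adjusted p = 0.0304 and 0.00969). Since Inhba and Fst separate the groups, genes chosen for likeness to them tend to differ between the groups, and their calls are no separate result. Among the 9 genes themselves, Inhba and Fst had a correlation of 0.907, Inhba and Inhbb of 0.445, and Inhba and Bambi of -0.798. The 6 points share 2 groups of 3 libraries, and these correlations are given as a description without a p-value.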

How the data were processed

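RNA was measured by sequencing of rRNA-depleted total RNA with molecular identifiers, per the labels, in 3 Control and 3 Sox9cKO samples of mouse biliary cells, between 11883496 and 16191990 reads per sample. The deposited values are a signal per gene, namely counts that the authors divided by 1 factor per sample. Of the values, 100% were whole multiples of 1 step per sample (tolerance 0.001 reads), which gave back the reads. The submitters' processing notes name DESeq2 1.36.0 and GRCm39. The aligner, the annotation, the strand setting and the use of the identifiers are not given in the sources used here, and the lowest row total was 10 reads.

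Values were tested as log2(value + 1) with limma 3.58.1 in R 4.3.3 (intensity trend, two-sided, Benjamini-Hochberg over all genes with a mean of at least 10, threshold 0.05). This understates changes of low genes. All 9 genes passed that filter. Alternatives were pseudocounts of 0.1 and 5, other filters, scalings, no intensity trend, edgeR 4.0.16, DESeq2 1.42.0 on the recovered reads, the replicate block and leaving out each sample. The endothelial covariate was added after the data were seen. The replicate numbers in the titles served as pairing, an assumption that the titles do not state. In these same data, deviations from the group mean in same-numbered samples had correlations of 0.207, 0.472 and 0.542 across genes. Between samples of unlike number they were -0.437 to 0.048. Drawn from the tested values themselves, these correlations do not test whether the samples were paired. Scripts were tested on simulated reads.

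Levels per kilobase used all annotated exons of GENCODE M21 (GRCm38). The genes and lists were chosen with earlier results of these data known. Named genes were the 9, Sox9, called pathway genes, the most abundant uncalled gene per sub-list, leading markers, and the genes most like Inhba (5) and Fst (3), and not every marker that this rule selects is reported. Most abundant there means reads not divided by exon length. Poisson intervals cover counting error only.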

Additional observations from a re-analysis of the deposited data

How the results depend on the processing

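Of the 9 genes, Fst was called under all 18 alternatives (log2 fold change 3.29 to 3.99, adjusted p at most 0.0338) and Inhba under 17 (1.91 to 2.43), the exception being the fit without Sox9cKO replicate 3 (2.18, limma, adjusted p = 0.0511). Sox9 was called under all 18 (-0.9997 to -0.88). The 18 include the fit with the endothelial covariate, which was chosen after the data were seen. The replicate block added 3 calls and changed no other call among the 9 genes: Inhbb at 1.22 with limma and 1.17 with edgeR, Fstl3 at -0.81 and -0.85, and Bambi at -1.04 and -1.09. DESeq2 also called Fstl3 (-0.83, adjusted p = 0.00865) and Bambi (-1.12, adjusted p = 0.00506). Inhbb and Bambi moved with single samples, Inhbb from 0.74 without Control replicate 3 to 1.73 without Sox9cKO replicate 3, and Bambi from -1.24 to -0.78. Fstl3 ranged from -0.99 to -0.69, Acvr1 from 0.17 to 0.30, Acvr2a from -0.39 to -0.26 and Acvr2b from -0.33 to -0.04 when 1 sample was left out. Acvr1b ranged from -0.13 to 0.065 and turned its sign without Sox9cKO replicate 3 (0.065). The number of genes called was 510 (349 higher, 161 lower). It was 1381 (868 and 513) with limma and the replicate block, 1160 (664 and 496) with edgeR and the replicate block, and 1214 (721 and 493) with DESeq2, and it lay between 199 and 387 (152 to 274 higher, 47 to 113 lower) with 1 sample left out. On the pathway list, 3 higher and 1 lower became 6 and 2 with the limma replicate block, and 5 and 2 with the edgeR replicate block and with DESeq2, and 1 to 3 higher and 0 to 2 lower with 1 sample left out. With fewer samples each test has less to go on, and the cause of the other shifts was not tested. The median over all genes was 0.036, with TMM 0.042 and with quantile normalization -0.031, and these scalings changed no call among the 9. The log2 difference of the Inhba to Fst ratio ranged from -2.08 to -0.95 and that of Fst to Fstl3 from 3.99 to 4.86 with 1 sample left out, and the exact test cannot pass at this sample number. Without a filter and at a minimum mean of 50 the calls among the 9 were the same. Depth limits Fst most, with 28 reads in its lowest sample.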
